A study of Mus musculus with 5 samples.

Results

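Expression of cullins and F-box proteins, the scaffolds and substrate receptors of ubiquitin ligases, in cardiomyocytes (CM) was set against that in lung fibroblasts. These are 2 of the 5 mouse samples of the series, and all 71 genes and 130 probe sets named in the deposited sheets were compared. The other 3 were left ventricle tissue and cardiac fibroblasts, either non-failing or failing, the failing ones from beta1-adrenergic transgenic mice. CM and lung fibroblasts both came from healthy wildtype male C57Bl/6N mice aged 6 months, CM from the heart and fibroblasts from the lung, and each was a pool of 5 animals hybridised to 1 Affymetrix array. The sources used here do not say how these mouse cells were isolated or whether the fibroblasts were cultured. With 1 sample on each side, no value has a replicate error, no difference was tested, and the number of arrays limits the precision.

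Cullin-RING ubiquitin ligases (CRL) are multi-subunit enzymes in which an elongated cullin scaffold holds a RING protein at one end and a substrate receptor at the other. Cul1 carries F-box proteins through the adaptor Skp1, and the F-box protein decides which substrates are ubiquitinated. F-box proteins are sorted by their substrate-binding part into Fbxw proteins with WD40 repeats, Fbxl proteins with leucine-rich repeats and Fbxo proteins with other domains. Muscle cells are known for F-box proteins that act in the turnover of muscle protein, such as Fbxo32, also called Atrogin-1.

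The 130 probe sets read 71 genes, 8 of them cullins, 33 Fbxo, 13 Fbxw and 17 Fbxl genes, with 39 genes read by a single probe set and 32 by several. The level of a gene is its log2 signal averaged over probe sets, and a difference is CM minus lung fibroblasts on the log2 scale, so that 1 stands for 2-fold. The standard deviation (SD) over the probe sets of a gene shows how far these readings differ on 1 array and is not a replicate error. Levels were read against 6.0 and 6.5, which the study's methods credit to the manufacturer as the levels from which relevant and strong protein expression is taken. Protein was not measured on these arrays, and the limits serve here only to sort mRNA levels. Because probe sets respond differently to the same amount of RNA, the level of a gene was not set against that of another beyond its rank in the sample. The identity of the cells could not be checked, since 0 of 29 listed marker genes of cardiomyocytes, fibroblasts and other cell types were among the named genes. In such pooled cells, fewer expressing cells and less RNA per cell cannot be told apart.

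The CM and lung fibroblast arrays covered different ranges. Probe sets lay between -0.75 and 11.52 in CM, with a median of 6.22, and between 1.76 and 11.60 in lung fibroblasts, with a median of 6.27. Their interquartile range was 3.21 in CM and 2.78 in lung fibroblasts. The lower end of the CM sample therefore reached further down. Each of the 18 probe sets under 3 in CM was higher in lung fibroblasts, as was each of the 10 genes under 3, whereas 3 of the 6 genes under 3 in lung fibroblasts were higher in CM. Values picked for being low in 1 sample tend to stand higher in the other partly through that choice. At the upper end, 25 of 30 probe sets of at least 8 in CM were higher in CM, and 10 of 23 of at least 8 in lung fibroblasts were higher in lung fibroblasts. Low values are for this reason given as values, and a gene was counted as different only if it differed at least 2-fold and reached 6.0 in at least 1 of the 2 samples.

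CM and lung fibroblasts shared most of their strongly expressed ligase genes. Levels exceeded 6.5 in both samples for 21 of 71 genes, which is 67.7% of the 31 genes over 6.5 in CM and 75% of the 28 in lung fibroblasts. A further 10 genes exceeded 6.5 only in CM, 7 only in lung fibroblasts, and 33 in neither. Of the 10 genes, Fbxl19 (7.00 in CM and 6.14 in lung fibroblasts), Fbxw4 (6.96 and 6.05), Fbxo21 (6.84 and 6.18) and Fbxo3 (6.56 and 5.79) differed by less than 2-fold. Of the 21 shared genes, 13 were read by several probe sets. All probe sets exceeded 6.5 in both samples for 3 of these, Fbxw7, Fbxl17 and Fbxo30. Within the 21 genes, 14 differed by less than 2-fold, and 11 stood higher in CM and 10 in lung fibroblasts by any amount. At the limit of 6.0, 27 genes were shared, 11 passed only in CM and 8 only in lung fibroblasts.

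**Figure D1:**
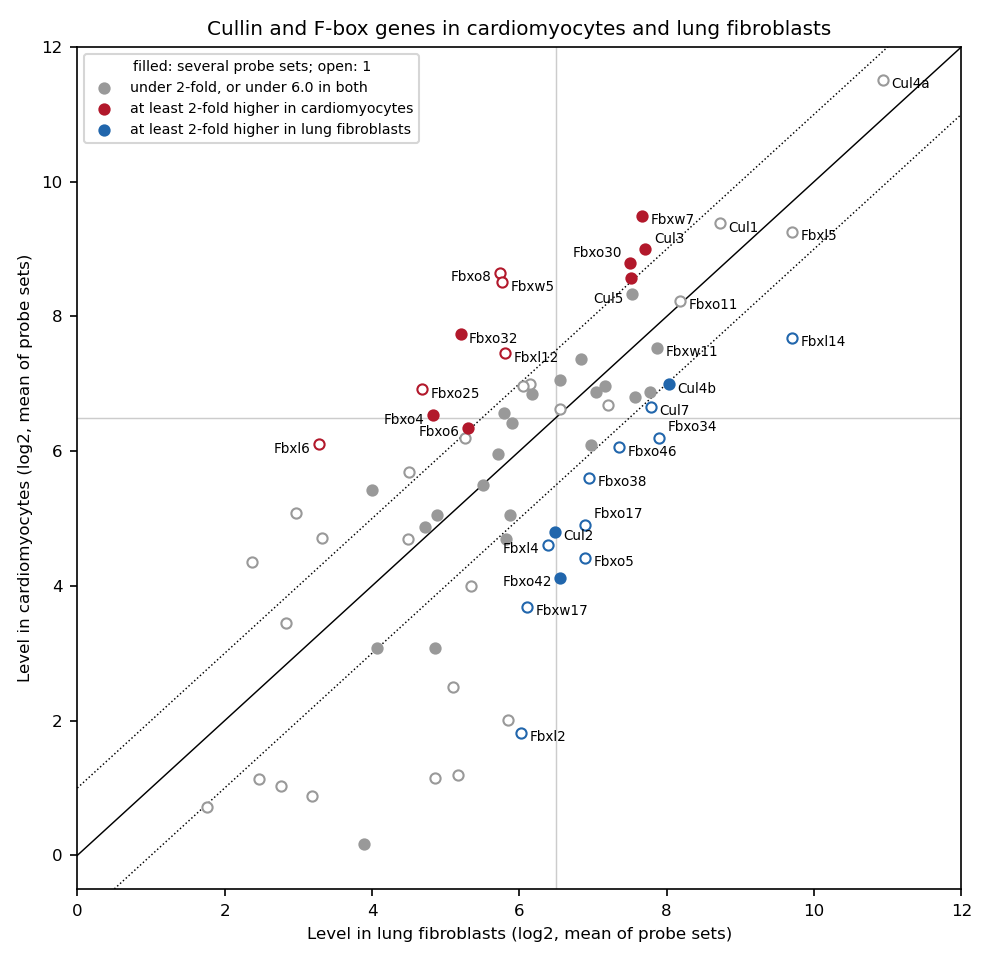
Level of each of the 71 cullin and F-box genes in lung fibroblasts (x axis) and CM (y axis), both as log2 means of the probe sets, with filled points for genes read by several probe sets and open points for genes read by 1. The solid line marks equal levels, the dotted lines 2-fold, and the grey lines 6.5; Cul4a tops both samples, and the 10 genes under 3 in CM all lie below the line of equal levels.

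Over 6.5 in both samples were 6 of 8 cullins, 8 of 33 Fbxo, 5 of 17 Fbxl and 2 of 13 Fbxw genes, beside 21 of all 71.

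Cul4a, a scaffold of the ligases that use the adaptor Ddb1, stood first of all genes in both samples, at 11.52 in CM and 10.93 in lung fibroblasts. Cul1, the scaffold of the F-box ligases, held place 3 in CM at 9.38 and place 4 in lung fibroblasts at 8.73. Both were read by 1 probe set and differed by less than 2-fold, by 0.58 and 0.65. Cul5, the scaffold of SOCS-box receptors, stood at 8.33 in CM and 7.53 in lung fibroblasts. Its 3 probe sets differed by 1.88, -0.12 and 0.66, so that its small difference had no common direction.

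Cul3, which binds BTB-domain receptors, was higher in CM by 1.29, with a level of 9.00 against 7.71. Its 5 probe sets read 10.90, 9.86, 7.78, 6.94 and 9.54 in CM. In lung fibroblasts the same probe sets read 10.33, 8.82, 4.71, 5.99 and 8.71. Each was higher in CM, but by 0.57 to 1.04 for 4 of them and by 3.07 for the other, and the difference between the median probe-set levels of the samples was 0.83, under 2-fold.

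Cul4b, the X-linked relative of Cul4a, was lower in CM, with probe sets at 8.60 and 5.38 against 9.23 and 6.83 in lung fibroblasts. Cul7, which assembles with Fbxw8 and is mutated in the growth disorder 3M syndrome, stood at 6.66 in CM and 7.79 in lung fibroblasts by 1 probe set. Both passed 2-fold narrowly, with differences of -1.04 and -1.13. Fbxw8 itself stood at 5.95 and 5.72, from 4 probe sets whose differences ran from -1.04 to 2.49.

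Cul2, the scaffold that carries the von Hippel-Lindau receptor, was read in opposite directions. A probe set read 1.15 in CM and 5.44 in lung fibroblasts, while the other read 8.44 and 7.52. The mean difference of -1.68 thus came from a probe set near the bottom of the CM array, and the stronger probe set was higher in CM by 0.92. Cul9, a cullin that binds p53, was below 6.0 in both samples, at 3.08 and 4.85, with both probe sets lower in CM, at differences of -2.02 and -1.53.

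Among the F-box proteins, 8 shared genes were Fbxo, 5 Fbxl and 2 Fbxw genes. Fbxl5, which senses iron and targets an iron regulatory protein, held place 4 in CM at 9.26 and place 2 in lung fibroblasts at 9.71. Fbxo11, a receptor for Bcl6, stood at 8.23 and 8.18. Each was read by 1 probe set, and neither differed by 2-fold. Fbxw11, a beta-TrCP protein that recognises phosphorylated IkB and beta-catenin, stood at 7.53 in CM and 7.87 in lung fibroblasts. Its 5 probe sets covered nearly the whole array, from 3.66 to 11.44 in CM and from 4.44 to 11.60 in lung fibroblasts, although their differences stayed between -1.57 and 0.45.

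Further shared F-box genes lay within 2-fold as well. Fbxl17, which removes wrongly paired BTB dimers, stood at 7.37 and 6.83, and Fbxo45, known for its role in synapse formation, at 6.87 and 7.77. Fbxo9 stood at 6.97 in CM and 7.16 in lung fibroblasts, Fbxo28 at 6.88 and 7.03, Fbxo22 at 6.81 and 7.57, and Fbxl20 at 7.05 and 6.55. Fbxo18, a DNA helicase now named Fbh1, was read at 6.62 and 6.55 by 1 probe set. These genes exceeded 6.5 by less than the spread that probe sets of a gene showed in either sample, where the median SD was 1.71 in CM and 1.81 in lung fibroblasts. For Fbxl20, probe sets that can also bind related transcripts read 9.50 and 7.29 in CM, and the others 5.77 and 5.64. Without the former, Fbxl20 was not over 6.5 in CM, and its differences ran from -0.87 to 2.87. With the median of its probe sets, Fbxo28 stood at 6.43 in CM.

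Over all 71 genes, 12 (16.9%) passed the 2-fold rule with the higher level in CM and 13 (18.3%) with the higher level in lung fibroblasts. A further 5 and 12 genes differed 2-fold but stayed under 6.0 in both samples. The median difference of all genes was -0.02. Of the 12 genes higher in CM, 7 had several probe sets of the same direction and 5 had a single probe set. Of the 13 genes higher in lung fibroblasts, 2 had several probe sets of the same direction, 1 had probe sets of opposite direction, and 10 had a single probe set. Over all 32 genes with several probe sets, 15 had the same direction on each. The rule was applied to the mean of these same probe sets, so that agreement among passing genes is partly set by the rule. Among genes that reached 6.0 in a sample, Fbxo6 at 1.05 and Cul4b at -1.04 lay closest inside the 2-fold limit, and closest outside it Fbxo7 at 0.93, Fbxw4 at 0.91 and Fbxo45 at -0.89.

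**Figure D2:**
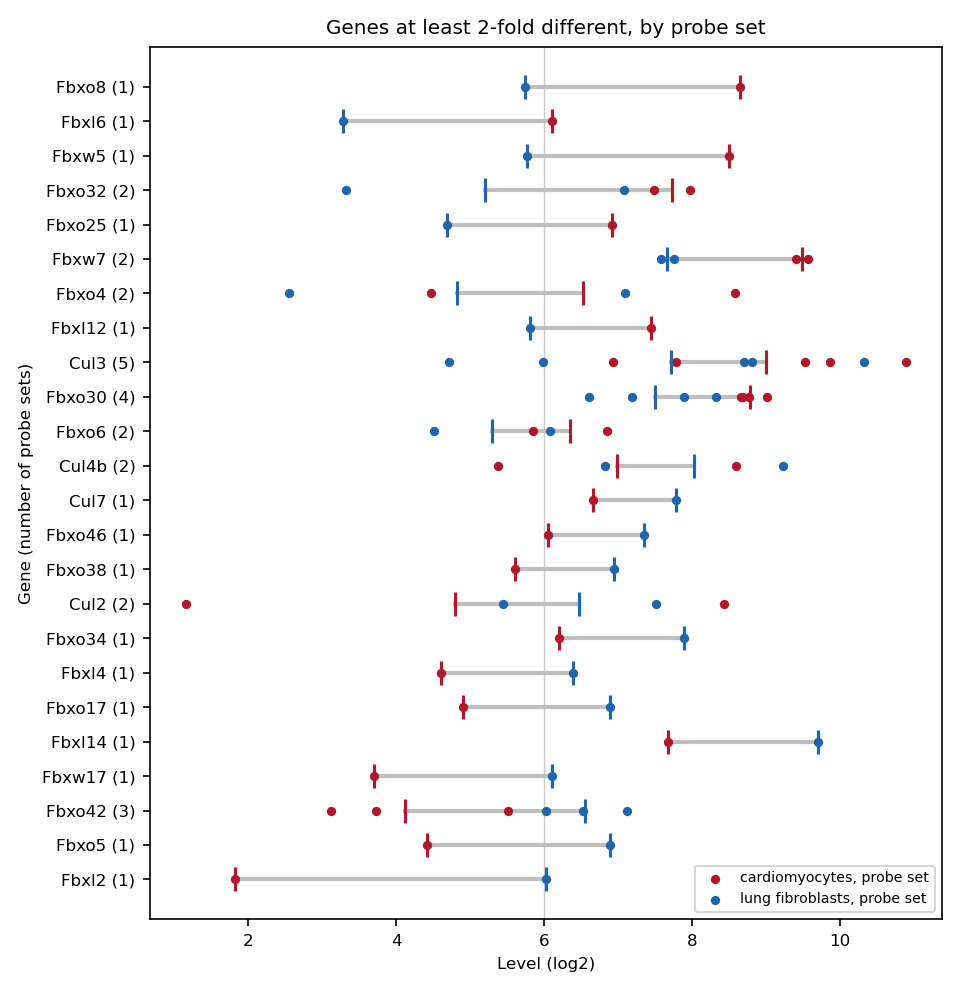
Log2 levels (x axis) of the single probe sets, as points, and of the gene means, as ticks, in CM (red) and lung fibroblasts (blue) for 24 of the 25 genes that differed at least 2-fold, sorted by difference with the number of probe sets in brackets. The probe sets of Fbxw7, Fbxo30, Fbxo32 and Fbxo42 do not overlap between the samples. Those of Fbxo4 and Cul3 spread further within a sample than between the 2 samples.

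All 3 measured members of the muscle ligase list, Fbxo32, Fbxo25 and Fbxo30, passed the rule towards CM, beside 16.9% of all genes, with a median difference of 2.24 beside -0.02. All 3 are in the study's siRNA library, which was chosen on these CM values, so their count is not independent of that choice. In the first and second library groups 6 of 17 and 5 of 18 genes passed towards CM, and outside them 1 of 36. With the strongest probe set of each gene Fbxo32 and Fbxo30 fell under 2-fold, and Fbxo25, read by 1 probe set, kept its difference. All 3 exceeded 6.5 in CM, whereas only Fbxo30 did so in lung fibroblasts. Fbxo30 and Fbxo32 are known for muscle wasting, and Fbxo25 is a receptor for the cardiac transcription factor Nkx2-5.

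Fbxo32 showed the largest change of rank of all genes, from place 49 in lung fibroblasts to place 12 in CM. Its probe sets read 7.49 and 7.98 in CM and 3.32 and 7.09 in lung fibroblasts. Both were higher in CM, but by 4.17 and 0.89, and its mean difference of 2.53 therefore rested on a probe set that was low in lung fibroblasts. With the stronger probe set alone Fbxo32 stayed under 2-fold. Fbxo25 stood 35 places higher in CM, at 6.92 against 4.68 in lung fibroblasts, a 4.72-fold higher signal by its 1 probe set.

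Fbxo30 had the closest readings among these genes. Its 4 probe sets read 8.69, 9.01, 8.78 and 8.67 in CM, with an SD of 0.16, and 6.61, 7.89, 7.19 and 8.33 in lung fibroblasts, with an SD of 0.76. The lowest CM probe set lay above the highest in lung fibroblasts, as was also the case for Fbxo32, Fbxw7 and Fbxl17. The differences of its probe sets ran from 0.33 to 2.09 with a mean of 1.28. The difference of Fbxo30 was under 2-fold after quantile normalization, at 0.98, and with the highest probe set of each sample, at 0.68.

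Fbxw7, the receptor for cyclin E, Myc and Notch, had the most similar differences of all genes with several probe sets. These read 9.58 and 9.41 in CM and 7.75 and 7.59 in lung fibroblasts, and each difference was 1.82, a 3.53-fold higher signal in CM. Fbxw7 held place 2 in CM and place 12 in lung fibroblasts. Fbxw5, whose protein also joins the Cul4 and Ddb1 ligases, was read at 8.51 in CM and 5.77 in lung fibroblasts by 1 probe set, a difference of 2.74. Of the 7 conserved WD40 receptors, 4 exceeded 6.5 in CM and 2 in lung fibroblasts, 2 passed the 2-fold rule towards CM and 0 towards lung fibroblasts, and their median difference was 0.52. Over all 71 genes, 31 and 28 exceeded 6.5, and 16.9% and 18.3% passed the rule, so that these counts do not set the list apart.

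Among gene means, the largest difference in favour of CM was that of Fbxo8, which carries a Sec7 domain and acts on the small GTPase Arf6. It stood at 8.65 in CM and 5.74 in lung fibroblasts, a difference of 2.91 and a move of 36 places, by 1 probe set. That probe set is of a kind that can also bind related transcripts. Fbxl6 followed with 6.10 against 3.28. Fbxl12, which binds cell-cycle inhibitors, stood at 7.45 against 5.81, a smaller difference of 1.65. Both were read by 1 probe set as well.

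Fbxo4, described as a receptor for cyclin D1, had probe sets at 4.48 and 8.59 in CM and at 2.55 and 7.09 in lung fibroblasts. The readings lay far apart within each sample, with an SD of 2.91 and 3.21, but both moved alike, by 1.92 and 1.49. Fbxo6, which binds N-glycans of misfolded glycoproteins, stood at 6.35 against 5.30, with differences of 0.76 and 1.35. The latter came from a probe set of a kind that can bind unrelated transcripts, and without it Fbxo6 was under 2-fold. Its relatives with the same glycan-binding domain stayed under 6.0 in both samples, except for Fbxo17, which stood at 4.91 in CM and 6.89 in lung fibroblasts by 1 probe set. Of the 5 measured genes of that family 1 passed the rule in each direction, close to the 16.9% and 18.3% of all genes.

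On the lung fibroblast side, Fbxo5 and Fbxo42 dropped furthest in rank in CM, by 31 and 30 places. Fbxo5, also called Emi1, an inhibitor of the anaphase-promoting complex that accumulates in dividing cells, was read at 4.41 in CM and 6.89 in lung fibroblasts by 1 probe set, a difference of -2.48. Of the 7 measured genes on the list of cell cycle and genome maintenance, it alone passed the rule towards lung fibroblasts, and Fbxw7 and Fbxo4 passed it towards CM, beside 18.3% and 16.9% of all genes. The other 4 genes had positive differences too, and Fbxo31, at 5.68 in CM, differed by 1.19 without reaching 6.0 in either sample. The median difference of that list was 0.93.

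Fbxo42, a receptor for p53, was the only gene of this side with at least 3 probe sets. Its 3 probe sets read 3.12, 3.73 and 5.52 in CM and 6.02, 6.52 and 7.12 in lung fibroblasts. All CM values lay below all lung fibroblast values, as was also the case for Fbxo33 and Fbxw14. The differences of Fbxo42 were -2.91, -2.79 and -1.60. Its mean level of 4.12 in CM was under 6.0, against 6.56 in lung fibroblasts, a 5.40-fold difference.

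Fbxl14, a receptor for the transcription factor Snail, was strong in both samples yet 4.07-fold higher in lung fibroblasts, at 9.70 against 7.68. It held place 3 in lung fibroblasts and place 13 in CM. Fbxo34 moved from place 7 in lung fibroblasts, at 7.90, to place 34 in CM, at 6.20. Fbxl2, a lipid-modified F-box protein, showed the largest difference under the rule, with 1.82 in CM and 6.03 in lung fibroblasts. That CM value lay in the range where all genes stood higher in lung fibroblasts, and the lung fibroblast value only just passed 6.0. Each of these genes was read by 1 probe set.

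Smaller differences in the same direction were read by 1 probe set each for Fbxl4, a mitochondrial protein mutated in mitochondrial DNA depletion, at 4.61 in CM and 6.39 in lung fibroblasts, and for Fbxo38, a receptor for PD-1, at 5.60 and 6.95. Fbxw17 stood at 3.69 and 6.11. Of the 6 measured Fbxw genes outside the conserved WD40 receptors, it alone reached 6.0 in either sample. Over all 71 genes, 38 did so in CM and 35 in lung fibroblasts. The others of the 6 were Fbxw10, Fbxw13, Fbxw14, Fbxw16 and Fbxw19, and all but Fbxw16 were under 3 in CM. The median level of these 6 genes was 1.17 in CM and 4.43 in lung fibroblasts, beside 6.10 and 5.90 over all genes. Fbxo33, a receptor for the Y-box protein YB-1, showed differences of -1.10 and -0.66 on its 2 probe sets and stayed under 2-fold.

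None of the 4 measured genes of the germline and stem cell list reached 6.0 in either sample, whereas 38 of all 71 genes did so in CM and 35 in lung fibroblasts. Fbxo15, a marker of embryonic stem cells in the mouse, was read at 0.72 and 1.76, and Fbxo43, a meiotic relative of Fbxo5, at 1.03 and 2.76. These genes held nearly the same rank in both samples, place 70 and 71 for Fbxo15 and place 68 in both for Fbxo43. Fbxo24 stood at 2.01 and 5.84, which is place 38 in lung fibroblasts, and Fbxw14 at 0.18 and 3.89. All 4 were higher in lung fibroblasts, as were all genes under 3 in CM.

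The siRNA library of the study was chosen on the CM values of these arrays, so that neither its CM levels nor the direction of its differences are independent of the choice, and the genes outside it are low in CM by the same choice. Of the 17 genes of its first group, 17 exceeded 6.5 in CM and 13 in lung fibroblasts. For the 18 genes of its second group these counts were 14 and 9. The study describes that group by mean values from 6.0 to under 6.5, so the gene means used here do not reproduce its grouping. In the first group 6 genes passed the 2-fold rule towards CM and 1, Cul4b, towards lung fibroblasts, and in the second group 5 and 2. Among the 36 measured genes outside both groups, 1, Fbxl6, passed it towards CM and 10 towards lung fibroblasts, beside 12 and 13 of all 71. Of 11 measured screening hits, 9 exceeded 6.5 in CM and 6 in lung fibroblasts, beside 31 and 28 of all 71 genes. These hits all came from both library groups, and the study scored them in neonatal rat cells. Of the hits, Fbxo25, Fbxo32, Fbxo30, Fbxw5 and Fbxo6 passed the 2-fold rule towards CM and Fbxl14 towards lung fibroblasts.

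The ranking of the genes was otherwise similar. Spearman's rho between CM and lung fibroblasts was 0.75 over the 130 probe sets (Pearson's r 0.74) and 0.67 over the 71 genes (Pearson's r 0.70). These are descriptions of 2 arrays, since genes are not independent replicates. By family, rho over the genes was 0.81 for the 8 cullins, 0.74 for the 13 Fbxw, 0.72 for the 17 Fbxl and 0.49 for the 33 Fbxo genes. The median gene moved by 11 places, and 13 genes stood among the 20 highest of both samples. A move of at least 20 places was seen for 8 genes towards a higher rank in CM and 10 towards a higher rank in lung fibroblasts.

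**Figure D3:**
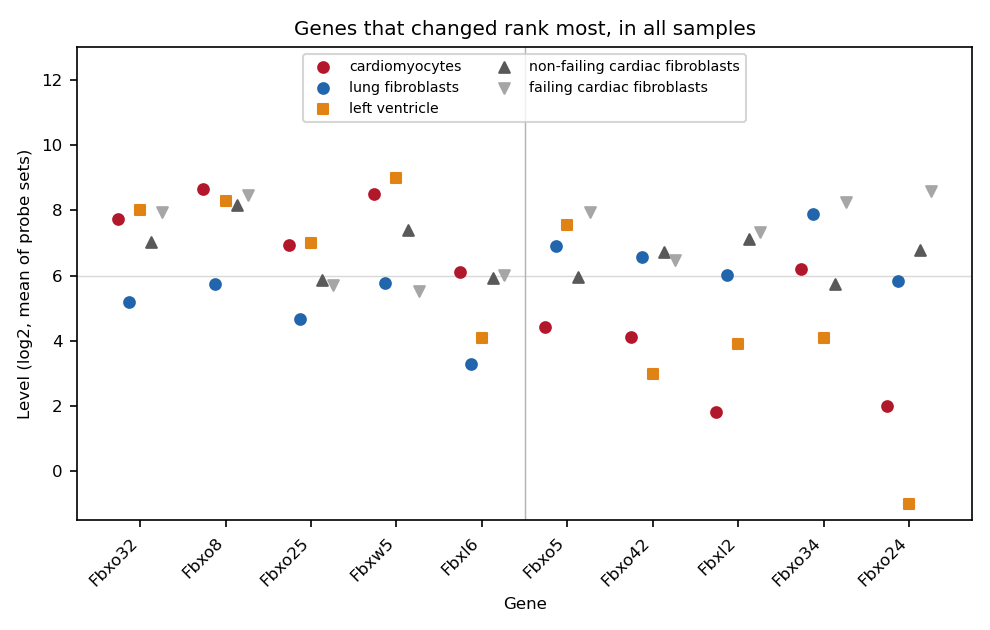
Log2 level (y axis, mean of the probe sets) in all 5 samples of the 5 genes that stood most places higher in CM than in lung fibroblasts (left) and of the 5 that stood most places lower (right), where Fbxw17 ties with Fbxo24 and is not drawn. Fbxo32, Fbxo8, Fbxo25 and Fbxw5 lie above 6.5 in left ventricle, and Fbxl6, Fbxo42, Fbxl2, Fbxo34 and Fbxo24 at or below 4.10.

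In left ventricle, which contains cardiomyocytes among other cells, Fbxo32 stood at 8.02, Fbxo8 at 8.27, Fbxo25 at 7.00 and Fbxw5 at 9.00. Other genes higher in CM had low means there, with Fbxl6 at 4.10, Cul3 at 4.73, Fbxo30 at 3.95 and Fbxl12 at 3.78. In left ventricle the probe sets of Fbxo30 ran from 0.26 to 9.64 and those of Cul3 from 1.20 to 7.61. Neither gene was thus low on all its probe sets. Of the genes higher in lung fibroblasts, Fbxo42 stood at 2.98, Fbxl2 at 3.92 and Fbxo34 at 4.10 in left ventricle, but Fbxo5 at 7.55, Fbxl14 at 9.84, Fbxw17 at 7.74 and Cul7 at 7.47. Cul4a and Cul1, at places 1 and 3 in CM, stood at -0.51 and 0 in left ventricle. Left ventricle thus did not follow CM throughout, and its Spearman's rho with CM was 0.18 over all probe sets. The cardiac fibroblasts did not follow the lung fibroblasts throughout: Fbxo8 stood at 8.15 in the non-failing and 8.47 in the failing sample, near its CM level, and Fbxo32 at 7.03 and 7.94. Fbxo42 stood at 6.71 and 6.47 there, near its lung fibroblast level of 6.56. Levels were not tested between these samples, whose normalization the sources used here do not state.

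Probe sets of the same gene often kept their order between CM and lung fibroblasts. When the mean of each gene was taken off, the deviations of 91 probe sets, from the 32 genes read more than 1 time, correlated with a Pearson's r of 0.80 between both samples, and the highest probe set was the same for 25 of the 32 genes. In the other 9 pairs of samples this r lay between -0.20 and 0.18, and the highest probe set was the same for 11 to 17 genes. Spearman's rho over all probe sets lay between -0.05 and 0.18 in those pairs. The likeness of CM and lung fibroblasts was thus seen in the probe sets within a gene as well as in the levels of the genes, and whether it comes from the cells or from the handling of the arrays was not tested.

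**Figure D4:**
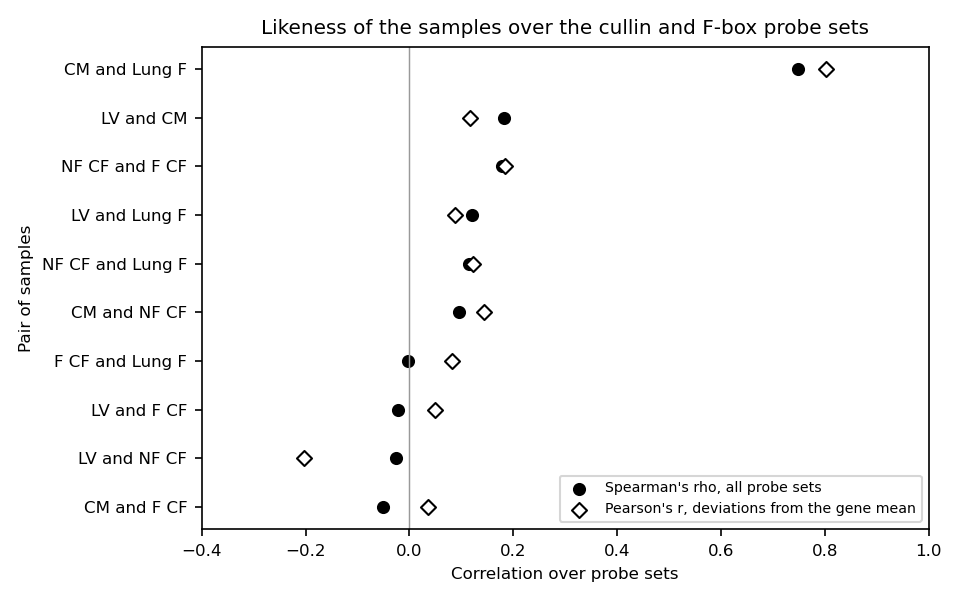
Spearman's rho over the 130 probe sets (filled points) and Pearson's r of the probe-set deviations from their gene mean (open diamonds), on the x axis, for each of the 10 pairs of samples (CM, cardiomyocytes; LV, left ventricle; NF CF and F CF, non-failing and failing cardiac fibroblasts; Lung F, lung fibroblasts). CM and lung fibroblasts stand at 0.75 and 0.80, and the other 9 pairs at 0.18 or below on both measures.

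The differences of single probe sets agreed less. All probe sets pointed in 1 direction for 15 of the 32 genes with several, 8 of them higher in CM and 7 in lung fibroblasts. This held for 11 of the 19 genes with 2 probe sets, and for 4 of the 13 genes with at least 3. The latter included Cul3, Fbxo30 and Fbxo42. The median SD of the differences was 1.01, lower than the SD of the levels, and it was below both SDs of the level for 19 genes. Opposite readings were widest for Fbxo41, a neuronal F-box gene, at 2.99 and 7.12 in CM against 5.93 and 3.83 in lung fibroblasts, where differences of -2.94 and 3.30 left a mean of 0.18. A small mean difference of such a gene is no reading of equal expression.

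**Figure D5:**
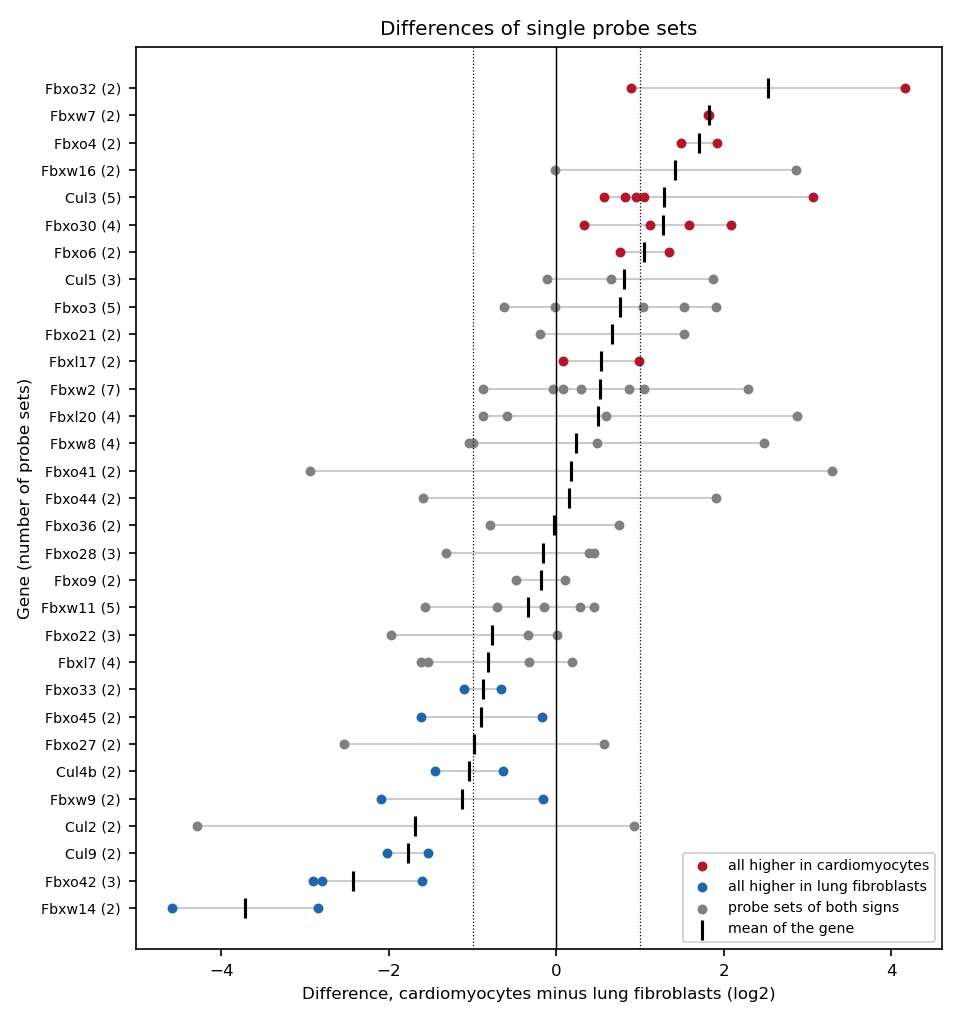
Differences of single probe sets (points), CM minus lung fibroblasts on the log2 scale (x axis), and the mean of the gene (tick) for 31 of the 32 genes with several probe sets, with dotted lines at 2-fold. Red and blue rows have probe sets of 1 direction, from Fbxo32 at a mean of 2.53 to Fbxw14 at -3.72, and grey rows, such as Fbxo41 and Cul2, cross zero.

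For these genes, Cul3, Fbxo30 and Fbxo42, on which at least 3 probe sets agreed, the promoter is shown, since all their readings had the same direction. The size of the difference was less firm for Cul3, which was under 2-fold with the median of its probe sets, and for Fbxo30. The sequences are those of RefSeq on mouse assembly GRCm38.p6, from 250 bases before to 50 bases after a transcription start, written 5′ to 3′ on the strand of the gene. Capitals mark the GC box GGGCGG and the CCAAT box, searched on both strands, with overlapping matches counted. The Cul3 promoter lies at chr1:80340641-80340940 on the minus strand, that of Fbxo30 at chr10:11281337-11281636 on the plus strand, and that of Fbxo42 at chr4:141147672-141147971 on the plus strand. The Fbxo30 window lies inside the annotated gene, which begins at 11281330, so that its start is not the first annotated start of that gene.
Cul3: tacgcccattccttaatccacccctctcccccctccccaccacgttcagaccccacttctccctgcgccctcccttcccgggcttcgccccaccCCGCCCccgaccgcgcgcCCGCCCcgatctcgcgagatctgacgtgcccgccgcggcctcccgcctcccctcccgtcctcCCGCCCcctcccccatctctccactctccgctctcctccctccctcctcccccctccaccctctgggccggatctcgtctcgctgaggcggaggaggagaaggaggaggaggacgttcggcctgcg
Fbxo30: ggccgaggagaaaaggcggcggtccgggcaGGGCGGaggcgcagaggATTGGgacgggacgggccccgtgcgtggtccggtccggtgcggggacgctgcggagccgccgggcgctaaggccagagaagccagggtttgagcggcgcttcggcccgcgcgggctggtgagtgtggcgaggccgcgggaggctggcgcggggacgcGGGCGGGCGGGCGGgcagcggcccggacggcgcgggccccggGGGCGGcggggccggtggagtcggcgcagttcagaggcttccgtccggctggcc
Fbxo42: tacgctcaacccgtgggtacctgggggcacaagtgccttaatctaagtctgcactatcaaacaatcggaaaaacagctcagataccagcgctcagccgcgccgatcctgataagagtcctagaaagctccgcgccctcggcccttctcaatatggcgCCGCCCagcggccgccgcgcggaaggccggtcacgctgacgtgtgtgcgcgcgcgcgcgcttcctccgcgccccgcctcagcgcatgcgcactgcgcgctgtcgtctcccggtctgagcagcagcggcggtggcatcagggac

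All 3 promoters were rich in G and C, with 72.3% in Cul3, 79.7% in Fbxo30 and 65.3% in Fbxo42. The GC box was found 3 times in Cul3, 5 times in Fbxo30, 3 of these overlapping in a row, and 1 time in Fbxo42, and the CCAAT box 1 time in Fbxo30. Of the 32851 mouse promoters of this length, 35.7% held a GC box and 37.4% a CCAAT box. RefSeq promoters were matched for 54 of the 71 measured genes, and of these 74 promoters 60.8% held a GC box and 28.4% a CCAAT box. The GC box stood in 7 of 13 promoters from 8 genes higher in CM and in 11 of 12 promoters from 11 genes higher in lung fibroblasts. The E box CANNTG stood in 5 and 9 of these promoters, in 66.2% of the promoters of the measured genes and in 72.3% of all promoters. These are matches of letters and no measured binding.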

How the data were processed

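Expression was read on Affymetrix arrays, 1 for each pooled sample. The authors deposited 2 sheets of log2 expression levels with gene symbols, for cullins and F-box genes, and a table of linear intensity for 45101 probe sets. How background was corrected, probes summarised and arrays normalized was not given in the sources used here. Levels were used as deposited. Within 1 percent or 0.01 units, the intensity matched the unlogged level for 129 of the 130 probe sets in CM and lung fibroblasts. The other rows of that table carry no gene name and were not used. Columns of the authors' own comparisons, as log2 differences against non-failing cardiac fibroblasts, were not used.

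Gene names were the first symbol of the sheets, as 4 probe sets had several, and all 71 were found in the RefSeq table, 1 as an older symbol. Genes named are the cullins, those over 6.5 in both samples, the largest differences and rank moves, members of the role lists, and genes whose probe sets disagree. Members, lists and rules were chosen with earlier results of these data known. The values of a single gene are left out of the text, but not of the counts. No test was made and no p-value is given, because each condition had 1 sample. Alternatives were other summaries of the probe sets, scalings and limits. Calculations used Python 3.11.15, pandas 2.3.3, NumPy 2.4.6, SciPy 1.17.1 and matplotlib 3.10.9, and were tested on simulated data.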

Additional observations from a re-analysis of the deposited data

How the results depend on the processing

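The 21 genes over 6.5 in both samples, the 27 of at least 6.0, and the counts of 12 and 13 different genes stayed within 1.5 times under every scaling and every summary of the probe sets, between 20 and 29, 27 and 36, 9 and 12, and 12 and 14. The scalings included equal medians with equal interquartile ranges, which was chosen after seeing the data. Quantile normalization kept 10 of the 12 genes higher in CM and all 13 higher in lung fibroblasts, and lost Fbxo30. Equal medians lost Cul4b, equal medians and interquartile ranges lost Fbxl2, and the median of the probe sets lost Cul3. The strongest probe set alone kept 7 and 11, without Cul3, Fbxo30, Fbxo32, Fbxo6, Cul2 and Cul4b, and reversed Cul2 to 0.92, as did the highest probe set in each sample. Counts moved with the limits. At least 2 probe sets over 6.5 in each sample left 12 shared genes, a rule that genes with 1 probe set cannot pass. A 1.5-fold limit gave 19 genes higher in CM, and a 4-fold limit 10 genes, 5 on each side. Without a level rule 42 genes differed, 25 of them higher in lung fibroblasts. With 6.0 in both samples 9 differed, 4 higher in CM and 5 in lung fibroblasts. With several probe sets of 1 direction, 9 differed, 7 and 2. Genes whose probe sets agree numbered 15 of 32, and 16 of 32 with equal medians and 11 of 32 after quantile normalization. These 2 alternatives were added after seeing the data. With only probe sets of at least 6.0 in 1 sample they numbered 11 of 19, and without _s_at and _x_at probe sets 12 of 28. The alternatives for rho lay between 0.67 and 0.75. Without probe sets named _s_at or _x_at, Fbxo6 fell to 0.76 and Fbxo8 had no value. No paired analysis was possible because CM and lung fibroblasts were 1 sample each. Signal over background was not given, which limits the reading of low levels.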
